A study of Rattus norvegicus with 24 samples.

Results

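DNA methylation at CpG islands was compared between 7 mammary carcinomas of rats irradiated before puberty (IR-3W) and 7 carcinomas that arose in non-irradiated rats (Spontaneous), which are 14 of the 24 arrays of the series. The IR-3W rats received 2 Gy of whole-body 137Cs gamma rays at 3 weeks of age. All rats were female Sprague-Dawley, and both groups were later given AIN-76A diet rich in corn oil, so that the Spontaneous tumors are controls for the radiation and not for the diet. The 7 IR-3W tumors came from 6 rats, since IR-3W tumors 6 and 7 were taken from 1 animal. Every other tumor of both groups came from a rat of its own. The comparison asked whether carcinomas after prepubertal exposure carry CpG island methylation that spontaneous carcinomas lack, or the reverse.

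CpG islands are stretches of DNA dense in CG dinucleotides, many of them at gene promoters, and most are unmethylated in normal cells. In carcinomas many islands gain methylation, which is often accompanied by silencing of the adjacent gene, while DNA elsewhere loses it. In the assay used here a methyl-CpG binding domain protein pulled methylated fragments out of sheared tumor DNA. The enriched DNA was labeled with Cy5, unenriched DNA of the same tumor with Cy3, and both were hybridized to 1 array. A high log2 ratio of Cy5 to Cy3 therefore marks a methylated region. Each array was centered on its own median, so a level of 0 is that of the median probe of the tumor, and a difference of 1 is a doubling of the enrichment relative to that probe.

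The arrays held 89403 probes on the 20 autosomes, of 45 to 60 bp, placed on the rn4 rat assembly. Probes at most 1000 bp apart were joined into 13856 runs, each standing for a CpG island or a piece of one, with a median of 6 probes. Probes were not assigned to genes here, and regions are given by position on rn4. Of the autosomal probes of a tumor, 89.6% to 99.1% gave a Cy3 signal well above background, and 72.4% to 93.9% a Cy5 signal. The arrays lay on 10 slides scanned on 6 days. Both groups were present on 2 of these days (3 IR-3W and 1 Spontaneous tumor on the one, 2 of each on the other) and on 1 slide. Estrogen receptor (ER) status also differed between the groups, 2 of the 7 IR-3W and 6 of the 7 Spontaneous tumors being ER positive, and 3 Spontaneous tumors came from rats older than the irradiated ones.

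IR-3W tumor 1 stood apart from all others. Its 95th percentile of the log2 ratio was 5.82, against 3.36 to 3.76 in the other IR-3W tumors and 2.49 to 4.12 in the Spontaneous tumors. Several values over the whole array are therefore also given without it. The correlations between arrays, the range of run differences and the counts of single channels are given only with it.

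Correlations between arrays were similar within the groups and slightly lower between them. Over the runs, the correlation between a pair of arrays had a median of 0.947 within IR-3W (21 pairs), 0.951 within Spontaneous (21 pairs) and 0.939 between the groups (49 pairs). IR-3W tumors 6 and 7, of the same rat, correlated at 0.938, below the median of their group. These values are descriptive, as all arrays share the probes and their base composition.

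One region, on chromosome 12, was more methylated in the IR-3W tumors. This run at chr12:38155524-38155995 holds 8 probes and was the single run of 13856 with an adjusted p under 0.05 (0.00722% of the runs tested). Its level was 3.29, 3.03, 3.09, 3.01, 3.07, 3.23 and 2.73 in IR-3W tumors 1 to 7. In Spontaneous tumors 1 to 7 it was 2.17, 1.94, 1.80, 2.07, 1.58, 1.13 and 1.80. All 7 IR-3W tumors thus lay above all 7 Spontaneous tumors, and the IR-3W tumors were tightly grouped. The means were 3.06 ± 0.18 and 1.78 ± 0.35 (SD, n = 7 each), a difference of 1.28 on the log2 scale with a standard error of 0.14 (limma with Benjamini-Hochberg adjustment, adjusted p = 0.0048). With scan day as a block 8 runs passed, and with 1 tumor per rat 3 runs passed, this run being among them both times (limma adjusted p = 0.0264 and 0.00812). Under quantile normalization 44 runs passed, this run not among them. With ER status as a covariate, ratios scaled to a common spread or normexp background correction 0 runs passed. The direction of the difference at this run held under all 33 alternatives and the call under 25. The 8 that ended the call were all among the 19 alternatives that did more than leave out 1 tumor. Among these 8 were quantile normalization (difference 0.93, limma adjusted p = 0.111), the fit of all 21 carcinomas (1.28, adjusted p = 0.177) and the ER positive tumors alone (1.41, adjusted p = 0.944).

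The difference ran along the whole chromosome 12 run. Of its 8 probes, 6 passed the adjusted threshold on their own, with differences of 1.26 to 1.38. The remaining 2 differed by 1.31 (probe A_45_P08822781, adjusted p = 0.113) and 0.97 (probe A_45_P08822782 at the end of the run, adjusted p = 0.393). The largest difference was at probe A_45_P23560123 (chr12:38155765-38155809), with a level of 3.49 ± 0.22 in IR-3W and 2.11 ± 0.39 in Spontaneous tumors (SD, n = 7 each; limma adjusted p = 0.0296). Probes A_45_P08822780 (chr12:38155756-38155800) and A_45_P08822778 (chr12:38155533-38155577) followed with differences of 1.36 each (limma adjusted p = 0.0296 and 0.0385). Some of these probes overlap on the genome and are not independent measurements.

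The difference at the chromosome 12 run lay in the enriched channel. The centered log2 Cy5 signal was 1.14 higher in IR-3W (limma adjusted p = 0.0479), and the Cy3 signal of unenriched DNA differed by -0.11 (SE 0.06, limma unadjusted p = 0.0849). The probes of the run were well above background in Cy5 in 109 of 112 measurements. Within scan days the difference was 1.93 and 1.21 on the days that held both groups. Among ER positive tumors the run was at 3.07 and 3.23 in the 2 IR-3W tumors and at 1.13 to 2.17 in the 6 Spontaneous tumors. The 5 ER negative IR-3W tumors lay at 2.73 to 3.29 and the only ER negative Spontaneous tumor at 2.07. With ER status as a covariate the difference was 1.25 and its limma adjusted p 0.150. With all ratios scaled to a common spread the difference was 1.25 with an adjusted p of 0.0787, and with normexp background correction it was 0.80 with an adjusted p of 0.915. Normexp was run on the median signals with an offset of 50, which by construction shrinks the log2 ratios of dim spots.

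The neighborhood of the chromosome 12 run was examined after its values had been seen. The next run, at chr12:38157705-38158243, begins 1709 bp further on and holds 2 probes, too few for the naming rule. It was at 3.05 ± 0.83 in IR-3W and 1.13 ± 0.50 in Spontaneous tumors (SD, n = 7 each), a difference of 1.91 that did not pass adjustment (limma adjusted p = 0.228). The run 4595 bp before the called one (chr12:38150494-38150928, 6 probes) was at 3.26 ± 0.65 and 2.17 ± 0.41 (adjusted p = 0.350). By contrast, the run 10454 bp after it (24 probes) was near 0 in both groups, at 0.09 ± 0.23 and 0.04 ± 0.14. The mean was thus higher in IR-3W at 3 adjoining runs, of which 1 passed the test, and in the 2-probe run single Spontaneous tumors were as low as 0.49. The groups overlapped there, with the lowest IR-3W tumor at 1.32 and the highest Spontaneous tumor at 1.88. They also overlapped in the 6-probe run, at 2.31 and 2.93. The 6-probe run and the called run belong to the 1969 runs with a mean level of 2 or above, whose median difference was 0.70.

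On chromosome 2 a short stretch was less methylated in IR-3W. Probes A_45_P02286319 (chr2:228545609-228545657) and A_45_P02286321 (chr2:228545799-228545843) were the 2 lower ones among the 8 probes called of 89403 (0.00895% of the probes tested), the other 6 being those of chromosome 12. At A_45_P02286319 the level was -0.69 ± 0.55 in IR-3W and 1.02 ± 0.30 in Spontaneous tumors (SD, n = 7 each), and at A_45_P02286321 it was -0.03 ± 0.35 and 1.46 ± 0.44. The groups did not overlap at either probe, with differences of -1.71 (SE 0.23) and -1.49 (SE 0.21) and a limma adjusted p of 0.0385 for both. Calls of single probes often missed the threshold under other settings on both chromosomes. A_45_P02286319 passed under 8 of 30 alternatives and A_45_P02286321 under 7 of 31, and on chromosome 12 A_45_P23560123 and A_45_P08822780 passed under 11 of 31 each and A_45_P08822778 under 8 of 31. With normexp background correction the chromosome 2 probes differed by -0.28 and -0.70. A_45_P02286319 was well above background in Cy5 in 3 of the 7 IR-3W and all 7 Spontaneous tumors. The third probe named for a lower level, A_45_P25501345 on chromosome 16 (chr16:81916791-81916846), was 1.28 lower, at -0.20 ± 0.39 against 1.07 ± 0.29, and missed the threshold (limma adjusted p = 0.0596).

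Within its run (chr2:228544721-228545843, 9 probes) the difference was larger at the end than at the start, without a steady rise. In order along the chromosome the probes differed by -0.16, -0.33, -0.52, -0.19, -0.76, -0.58, -1.71, -1.28 and -1.49. The seventh of them is A_45_P02286319, the probe near background in most IR-3W tumors. The run as a whole was at -0.14, -0.10, 0.46, 0.26, 0.42, -0.36 and -0.21 in IR-3W tumors 1 to 7 and at 0.66, 0.63, 0.60, 0.73, 1.31, 1.29 and 0.57 in Spontaneous tumors 1 to 7. The groups did not overlap, but the difference of -0.78 (SE 0.17) did not pass adjustment over all runs (limma adjusted p = 0.350).

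**Figure D1:**
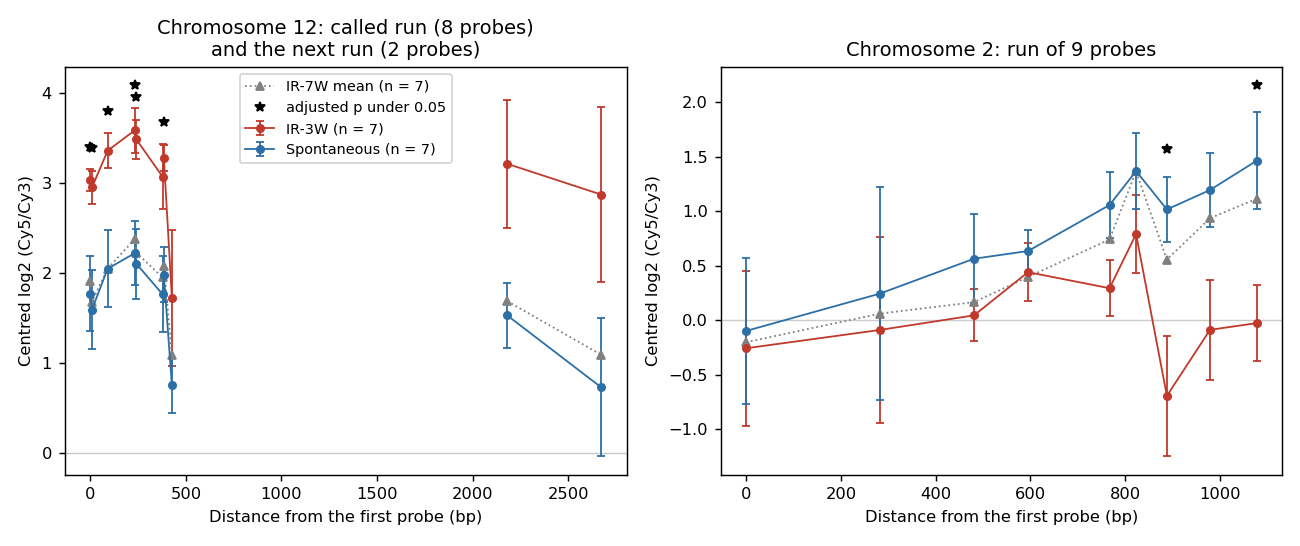
Mean centered log2 ratio of Cy5 to Cy3 (vertical axis) of single probes against the distance from the first probe in bp (horizontal axis), for the chromosome 12 runs (left) and the chromosome 2 run (right). Circles with bars are mean and SD of the 7 IR-3W (red) and 7 Spontaneous (blue) tumors, gray triangles are IR-7W means, and stars mark probes with an adjusted p under 0.05. On chromosome 12 the IR-3W mean lay above the Spontaneous mean at all 10 probes, with overlapping tumors at 3 of them, and on chromosome 2 the groups parted toward the end of the run.

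The count of called probes was 84 with scan day as a block and 2 with 1 tumor per rat, and it rested on few tumors. It was 0 when IR-3W tumor 1, 3 or 6 or Spontaneous tumor 2, 5 or 7 was left out, 1 without IR-3W tumor 2, 3 without Spontaneous tumor 3, and 4 without IR-3W tumor 5 or Spontaneous tumor 4. The chromosome 12 run kept an adjusted p of 0.00122 to 0.0221 whichever tumor was left out, and its difference then ranged from 1.17 to 1.35. The number of called runs was 3 without IR-3W tumor 7 and 2 without Spontaneous tumor 3.

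At the looser unadjusted p of 0.005, 1122 probes (1.25% of those tested) and 184 runs (1.33%) were set apart. Of the probes 454 were higher and 668 lower in IR-3W, and of the runs 96 were higher and 88 lower. The share of these probes that were higher, 40.5%, was 62.0% without IR-3W tumor 7, 53.2% without Spontaneous tumor 1 and 24.9% without Spontaneous tumor 3, so the larger side changed with the tumor left out. At an unadjusted p of 0.05 the counts were 9295 probes (10.4%), 5179 of them higher and 4116 lower in IR-3W, and 1457 runs (10.5%), 907 higher and 550 lower. The larger side among the probes was thus the lower one at 0.005 and the higher one at 0.05. The 7 tumors of each group did not overlap at 138 probes (0.154%), 65 of them higher in IR-3W, and at 25 runs (0.18%), 16 of them higher. The typical run differed little, with 90% of the differences between -0.35 and 0.77 and a median standard error of 0.13.

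**Figure D2:**
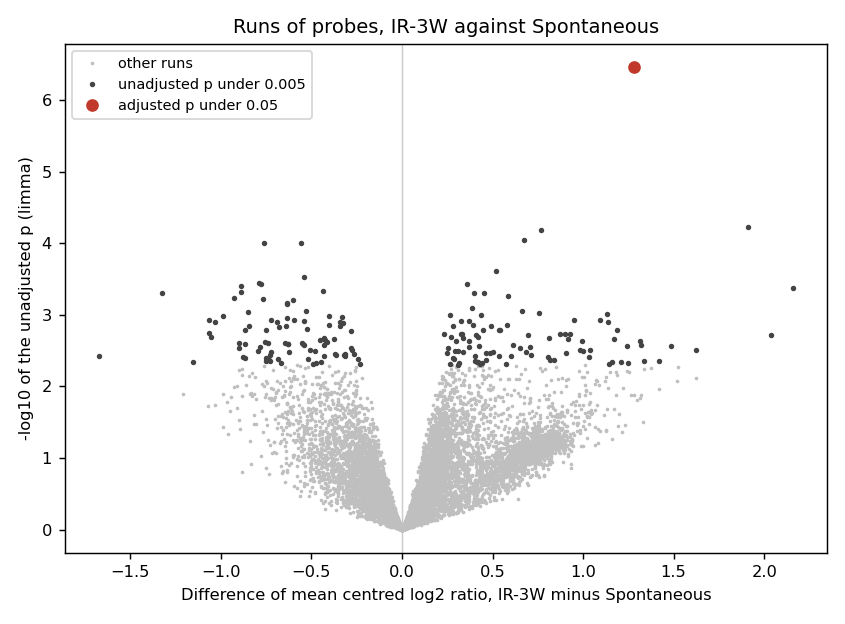
Difference of the mean centered log2 ratio, IR-3W minus Spontaneous (horizontal axis), against the -log10 of the unadjusted limma p (vertical axis), 1 point per run. The red point is the chromosome 12 run at a difference of 1.28, dark points are the 184 runs with an unadjusted p under 0.005, and a band of gray points between 0.5 and 1 on the right has no counterpart on the left.

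The 10 runs named as higher in IR-3W had differences of 0.36 to 2.16. Apart from the chromosome 12 run none passed adjustment (limma adjusted p 0.228 to 0.350), and they are described as the runs of smallest p. The groups did not overlap at 5 of the 10, runs that were chosen by these same values, against 0.18% of all runs (16 of the 25 such runs being higher). The run at chr3:114072908-114073807 (9 probes) ranged from 1.35 to 2.14 in IR-3W, with a median of 1.92, and from 0.82 to 1.26 in Spontaneous tumors, with a median of 0.94. Its difference was 0.77 (SE 0.14). The run at chr6:78048260-78048967 (7 probes) was methylated in every tumor, at 2.01 to 2.87 in IR-3W and 1.75 to 2.17 in Spontaneous tumors. There 6 of the 7 IR-3W tumors exceeded every Spontaneous tumor. Its difference of 0.67 was no larger than the median difference of 0.70 over the 1969 runs with a mean level of 2 or above, to which it belongs.

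The largest of these differences was also the most uneven. The run at chr19:15742697-15743018 (4 probes) was at 3.94, 3.05, 1.64, 2.40, 0.73, 2.84 and 0.40 in IR-3W tumors 1 to 7. In the Spontaneous tumors it lay between -0.59 and 0.70, with a median of -0.12. The difference was 2.16 (SE 0.47). IR-3W tumor 7 lay within the range of the Spontaneous tumors and tumor 5 just above it. Tumors 6 and 7, which shared a rat, were at 2.84 and 0.40.

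Other higher runs differed by less and lay at lower levels. The run at chr1:192597217-192600799, the longest of them with 16 probes, was at 0.84 to 1.35 in IR-3W and 0.42 to 0.75 in Spontaneous tumors. The run at chr5:137117350-137118236 (9 probes) was at -0.11 to 0.21 and -0.52 to -0.14. The run at chr2:143980879-143981423 (3 probes) was at 0.26 to 0.61 and -0.41 to 0.22, but only 26 of its 42 Cy5 measurements were well above background and its Cy3 signal was lower in IR-3W by 0.29 (limma unadjusted p = 0.00698). With only probes above background in both channels its difference was -0.0066. The last 3, at chr10:17184177-17184659, chr12:2572355-2573215 and chr10:107308952-107309553, differed by 0.59, 0.38 and 0.66, with 6 of 7 IR-3W tumors above every Spontaneous tumor at each. The ER negative Spontaneous tumor lay within the range of the ER negative IR-3W tumors at chr10:107308952-107309553 alone among the 10 higher runs. Normexp background correction shrinks the ratios of dim spots through its offset. With it 9 of the 10 differences were smaller by over 1.5 times, the 10 then ranging from 0.06 to 1.15, with 0.10 at chr10:17184177-17184659. That run was at 0.16 with probes above background in both channels. The run at chr6:78048260-78048967 instead fell from 0.67 to 0.42 with quantile normalization, and with the median of the probes of a run the difference was 0.09 at chr5:137117350-137118236 and 0.25 at chr12:2572355-2573215. In all 10 higher runs the Cy5 signal was higher in IR-3W, by 0.20 to 1.98 log2 units, while the Cy3 signal was lower in 9 of them, the difference ranging from -0.31 to 0.02. At chr10:17184177-17184659 the Cy3 difference of -0.31 (limma unadjusted p = 0.0309) was larger in size than the Cy5 difference of 0.25 (limma unadjusted p = 0.147).

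The 10 runs named as lower in IR-3W had differences of -0.54 to -1.33, none past adjustment (limma adjusted p 0.228 to 0.350). Their IR-3W means lay between -0.28 and 0.52, close to the median probe, and their Spontaneous means between 0.48 and 1.85. The groups did not overlap at 2 of the 10, against 0.18% of all runs (9 of the 25 such runs being lower), which is again no result, as these values chose the runs. The 2 were the chromosome 2 run and the run at chr17:21993868-21994504 (6 probes). The latter was at 0.28 to 0.63 in IR-3W, with a median of 0.47, and at 0.78 to 1.51 in Spontaneous tumors, with a median of 0.97, a difference of -0.56 (SE 0.10).

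The largest of the lower differences was at chr2:103087294-103087538 (3 probes). It was at 1.05, -0.36, 0.60, 0.77, 1.53, -0.04 and 0.11 in IR-3W tumors 1 to 7 and at 2.56, 2.19, 1.30, 1.45, 1.93, 2.27 and 1.24 in Spontaneous tumors 1 to 7, and IR-3W tumor 5 alone reached the Spontaneous range. The run at chr20:2706793-2707251 (3 probes) was below 0 in every IR-3W tumor, at -0.45 to -0.09, and above 0 in all Spontaneous tumors but tumor 3. Chromosome 3 held 2 such runs of 8 probes and 1 of 12, at chr3:169887613-169889066, chr3:57818021-57818858 and chr3:99607884-99609237, with differences of -0.54, -0.79 and -0.89. The remaining runs, at chr13:100690774-100692149, chr16:81916488-81917055 and chr8:127284083-127285584, differed by -0.89, -0.93 and -0.77. At 3 of the 10 lower runs the only ER negative Spontaneous tumor lay within the range of the ER negative IR-3W tumors. The differences among ER negative and ER positive tumors were -0.18 and -1.08 at chr13:100690774-100692149, -0.27 and -0.86 at chr8:127284083-127285584 and -0.26 and -0.97 at chr3:99607884-99609237. With normexp background correction all 10 differences were smaller in size by over 1.5 times, at -0.17 to -0.88, and that at chr16:81916488-81917055 was -0.22. With scan day as a block the difference at chr3:99607884-99609237 was -1.35. Among ER positive tumors alone that at chr3:57818021-57818858 was -0.44. In all 10 the Cy5 signal was lower in IR-3W, by 0.72 to 1.41 log2 units, and the Cy3 signal by 0.06 to 0.30.

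The IR-7W carcinomas, from rats given the same dose at 7 weeks, took no part in the choice of these runs. Their mean was nearer to the Spontaneous than to the IR-3W mean at all 10 higher runs and at 9 of the 10 lower runs. At the chromosome 12 run it was 1.92 ± 0.89 (SD, n = 7), with single tumors from 0.20 to 2.89, the highest of them within the IR-3W range. A pair of these IR-7W tumors came from the same rat. According to the paper the IR-7W group held no ER negative tumors, so age at irradiation and ER status cannot be told apart here. The same count was not made over all runs. As runs were chosen for an extreme IR-3W to Spontaneous difference, the comparison with IR-7W is a description and was not tested.

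**Figure D3:**
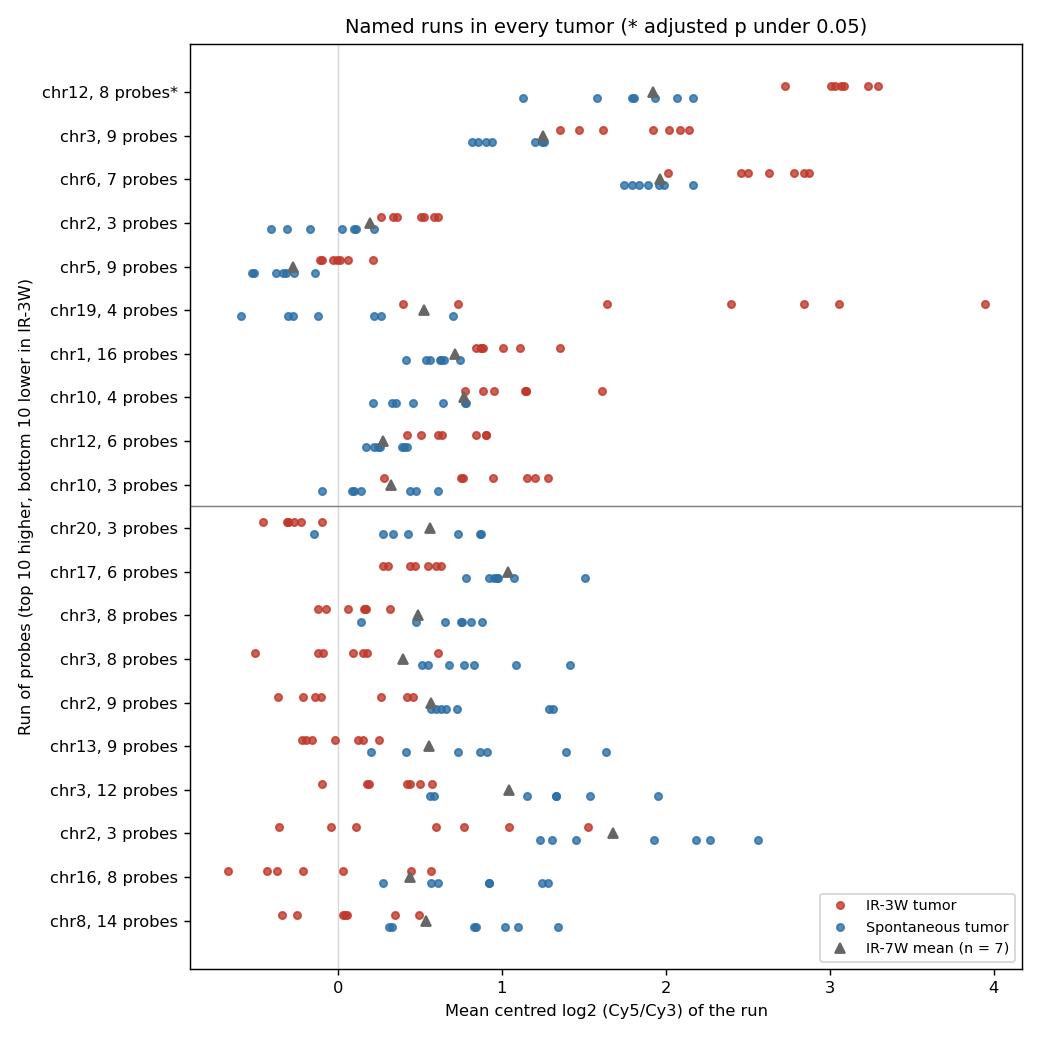
Mean centered log2 ratio (horizontal axis) of the 20 named runs (vertical axis), with 1 circle per tumor for IR-3W (red) and Spontaneous (blue) and a triangle for the IR-7W mean. The chromosome 12 run in the first row has the IR-3W tumors at 2.73 to 3.29, apart from the Spontaneous tumors at 1.13 to 2.17, and the IR-3W tumors of the lower runs gather near 0.

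Across all autosomal probes, the unenriched Cy3 channel gave 0 probes with an adjusted p under 0.05 by limma, with 14130 (15.8%) at an unadjusted p under 0.05. The Cy5 channel gave 9 probes (0.0101%) and 2 runs (0.0144%), and 3 of the 9 probes were also called on the ratio. At an unadjusted p under 0.05 the Cy5 channel had 8780 probes (9.82%), and of the runs 2731 (19.7%) were reached in Cy3 and 1565 (11.3%) in Cy5, so that more features differed at this level in the unenriched than in the enriched channel.

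Runs with a high mean level were higher in the IR-3W tumors on average, within overlapping ranges. Runs were divided, after the values had been seen, by their mean over the 14 tumors, and no test was made of the classes. The 1969 runs at 2 or above averaged 3.51 ± 0.79 in IR-3W and 2.89 ± 0.60 in Spontaneous tumors (SD, n = 7 each), a difference of 0.62, which was 0.33 without IR-3W tumor 1 and 0.56 with ratios scaled to a common spread. Single tumors ranged from 2.94 to 5.26 and from 2.21 to 3.69, so the groups overlapped. Of these runs 107 had a Spontaneous mean and 19 an IR-3W mean below 2, and the remaining 1843 differed by 0.62, or 0.33 without IR-3W tumor 1. The 7554 runs below 0 averaged -0.42 and -0.41, the 3399 runs between 0 and 1 averaged 0.38 and 0.37, and the 934 runs between 1 and 2 averaged 1.45 and 1.41. An unadjusted p under 0.005 was reached by 19 runs at 2 or above (0.965%, against 1.33% of all runs), all of them higher in IR-3W, as was the class as a whole with a median difference of 0.70. Only 8 of the 19 (0.434% of the 1843) were among the runs with both group means at 2 or above. The shares were 0.649% below 0, 2.53% from 0 to 1 and 3.21% from 1 to 2, with 77 higher and 88 lower in these classes together.

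None of 7 summaries of the whole array differed beyond the spread between tumors. The 95th percentile was 3.92 ± 0.85 in IR-3W and 3.20 ± 0.64 in Spontaneous tumors (SD, n = 7 each; two-sided exact permutation test over 3432 splits, p = 0.0816, adjusted over the 7 summaries 0.465). The 5 Spontaneous tumors 2, 3, 4, 5 and 7 were at 3.36 or below, and tumors 1 and 6 at 3.94 and 4.12. The SD of the log2 ratios was 1.54 ± 0.29 and 1.33 ± 0.19 (exact permutation p = 0.133). The 75th percentile was 0.92 ± 0.18 and 0.91 ± 0.16 (exact permutation p = 0.899). The share of probes above 2 was 14.7% ± 2.0 and 13.6% ± 3.0 (exact permutation p = 0.431). Without IR-3W tumor 1 the difference of the 95th percentile fell from 0.72 to 0.40 (exact permutation p = 0.163), that of the SD from 0.20 to 0.10 (exact permutation p = 0.277) and that of the share above 2 from 1.09 to 0.43 percentage points (exact permutation p = 0.740), and the 75th percentile was then 0.04 below that of the Spontaneous tumors.

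**Figure D4:**
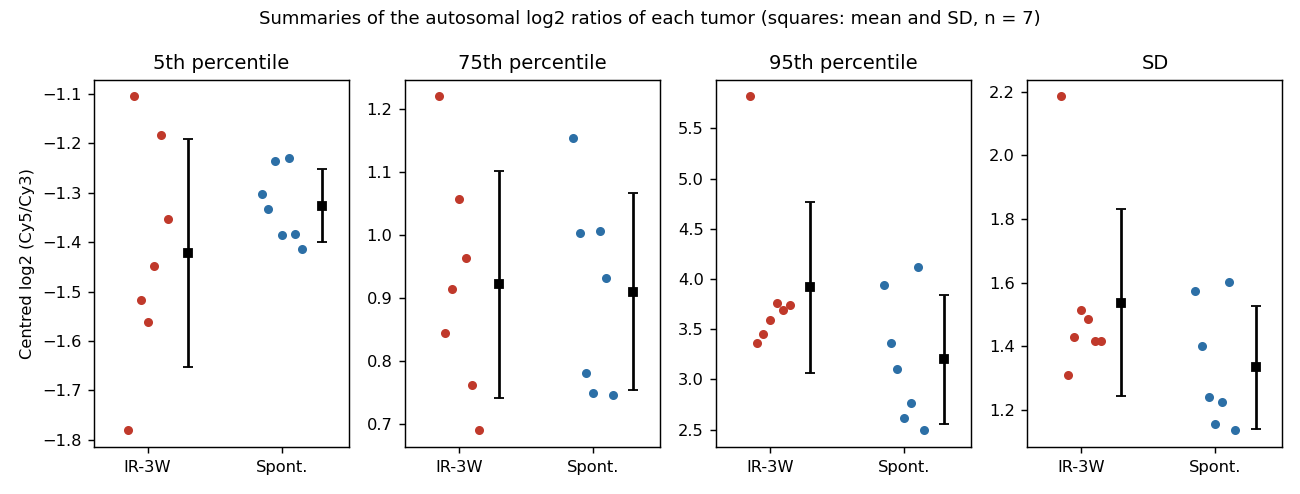
The 5th, 75th and 95th percentile and the SD of the centered autosomal log2 ratios (vertical axes, log2 units) for each of the 7 IR-3W (red) and 7 Spontaneous (blue) tumors, with squares and bars for mean and SD. IR-3W tumor 1 is at 5.82 for the 95th percentile and 2.19 for the SD, and the other tumors of both groups overlap.

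No chromosome stood out. The mean log2 ratio was higher in IR-3W on all 20 autosomes, by 0.02 on chromosome 4 to 0.15 on chromosome 12, and none differed beyond the spread between tumors (two-sided exact permutation tests, smallest p = 0.137, adjusted p at least 0.441). Chromosome 12 averaged 0.74 ± 0.19 in IR-3W and 0.59 ± 0.16 in Spontaneous tumors (SD, n = 7 each), and chromosome 20 averaged 0.72 ± 0.19 and 0.58 ± 0.16. Without IR-3W tumor 1 the differences were 0.08 on each of these chromosomes (exact permutation p = 0.275 and 0.293), and 0.08 was also the largest over the 20 autosomes. The direction did not hold throughout. With scan day as a block the difference was below 0 on 8 autosomes (1, 2, 4, 5, 6, 9, 14 and 15), and without IR-3W tumor 1 it was below 0 on chromosomes 2 and 4.

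**Figure D5:**
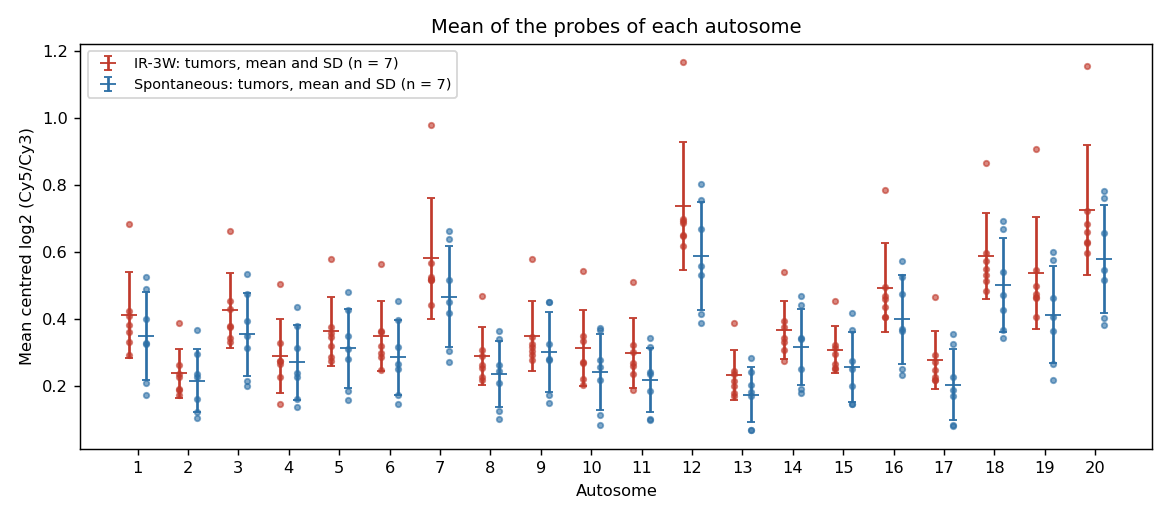
Mean centered log2 ratio of the probes of each autosome (vertical axis) by autosome (horizontal axis), with 1 point per tumor and the mean and SD of the 7 IR-3W (red) and 7 Spontaneous (blue) tumors. IR-3W tumor 1 is the highest point on chromosome 12 at 1.17 and on chromosome 20 at 1.16, while the other tumors of both groups overlap.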

How the data were processed

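The authors enriched methylated DNA with the MethylMiner kit and hybridized it with unenriched DNA to an Agilent rat CpG island array. The deposited intensity values are scanner output of Agilent Feature Extraction 10.7.3.1, in which background was subtracted, spatial trends were removed and a linear dye factor was applied. Between 97.9% and 99.6% of the log10 ratios that the authors deposited with them matched the processed signals (tolerance 0.0001). The deposited series table holds log2 ratios of the same arrays (lowest correlation with the scanner ratios 0.996, column medians -0.30 to -0.05) and served as an alternative. Neither holds the LogOdds of the study.

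Outlier spots and control probes were left out, spots of 1 probe were averaged, and log2 ratios were centered on the median of the autosomal probes. Sex chromosomes were not used here. Each probe and each run mean entered limma 3.58.1 (R 4.3.3), p-values being adjusted after Benjamini and Hochberg over 89403 probes or 13856 runs, and array summaries by two-sided exact permutation tests in Python 3.11.15. The study ran t-tests on its LogOdds. A t-test with equal variances was an alternative here, on the log2 ratios and without the study's minimum difference of LogOdds. Named runs were the 10 per direction, of at least 3 probes, past adjusted p 0.05 with the largest difference, filled up by smallest p. Named probes were 3 per direction by the same rule. The groups, runs and lists were chosen with earlier results of these data known. The lists of genes and of cell type markers that were drawn up could not be applied, because gene names of the probes were not used here, nor was any annotation or sequence of rn4. The cell content of the tumors was therefore not checked. ER status and the age of the rats came from the study's description of the tumors.

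On simulated data with the real means and SDs, limma recovered 39 of 100 probes changed by 1 and 81 of 100 changed by 2 log2 units among 89403 probes, with 8 false calls. Among 13856 runs it recovered 75 and 96 of 100, with 12 false calls. Each feature was drawn independently from a normal distribution with the same SD in both groups. Shifts of whole arrays, overlapping probes and the shared rat were absent, so these counts may not carry over to the real arrays. The number of arrays limits the precision. Alternatives changed the normalization, background correction, probe filters, blocks, covariates, test, run definition and tumors left out. The level classes of runs and their alternatives were chosen after seeing the data.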

Additional observations from a re-analysis of the deposited data

Results flagged for a closer look

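IR-3W tumor 1 lay far above the other 6 IR-3W tumors by Dixon's test at its 95% critical value in the mean of all autosomal log2 ratios (0.651, others 0.306 to 0.408), their SD (2.19, others 1.31 to 1.51) and their 95th percentile (5.82, others 3.36 to 3.76). The same tumor lay far above the others on 18 of the 20 autosomes. Its mean log2 ratio was 0.683 on chromosome 1, 0.388 on chromosome 2, 0.661 on chromosome 3, 0.579 on chromosome 5, 0.564 on chromosome 6, 0.98 on chromosome 7, 0.468 on chromosome 8, 0.579 on chromosome 9, 0.543 on chromosome 10. It was 0.511 on chromosome 11, 1.17 on chromosome 12, 0.388 on chromosome 13, 0.452 on chromosome 15, 0.784 on chromosome 16, 0.464 on chromosome 17, 0.865 on chromosome 18, 0.907 on chromosome 19 and 1.16 on chromosome 20. The autosomes were measured on the same array and are not independent. At the named run chr17:21993868-21994504, Spontaneous tumor 1 was at 1.51, far above the other Spontaneous tumors at 0.78 to 1.07. Of 106 groups of 7 values examined 22 were set apart in this way, 21 of them in IR-3W tumor 1, and chance gives about 1 in 20.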

How the results depend on the processing

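The chromosome 12 run kept its direction under all 33 alternatives and its adjusted p under 0.05 in 25 of them. Those that ended the call were all among the 19 alternatives that did more than leave out 1 tumor. The run missed the threshold in the fit of all 21 carcinomas (adjusted p 0.177), the replicate block (0.166) and Welch's test (0.156), with a difference of 1.28 in each. It also missed it with ER status as a covariate (difference 1.25, adjusted p 0.150) and in ER positive tumors alone (1.41, 0.944). The same held with a common spread (difference 1.25, adjusted p 0.0787), quantile normalization (0.93, 0.111) and normexp (0.80, 0.915). In the scan day block its difference was 1.52 (adjusted p 0.0264). The replicate numbers did not pair the tumors (correlation of same-numbered tumors -0.30 to 0.66), and the block on them is given only here.

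The number of called probes, 8, was 0 with all 21 carcinomas, a common spread, normexp, the replicate block, the ER covariate, ER positive tumors alone, without the 3 tumors of older rats and by Welch's test. It was 38 with quantile normalization, 84 with scan day as a block, 2 with 1 tumor per rat, 1 by the methods' t-test (960 at an unadjusted p under 0.005, and 173 runs), 15 with array weights and 0 to 9 when 1 tumor was left out. The number of called runs, 1, was 0 with all 21 carcinomas, a common spread, normexp, the replicate block, the ER covariate, ER positive tumors and Welch's test. It was 44 with quantile normalization, 8 with scan day, 3 with 1 tumor per rat and 1 to 3 when 1 tumor was left out. By threshold 9295 probes had an unadjusted p under 0.05 and 1122 under 0.005. At the latter, probes numbered 2046 with quantile normalization, 238 with normexp, 1721 with scan day, 381 with the ER covariate, 284 in ER positive tumors, 605 without older rats, 742 by Welch's test, 1966 with array weights and 671 to 1536 without 1 tumor. Runs numbered 330 with a common spread, 431 with quantile normalization, 28 with normexp, 300 with scan day, 51 with the ER covariate, 33 in ER positive tumors, 70 without older rats, 315 with array weights and 110 to 230 without 1 tumor. The share of these probes higher in IR-3W, 40.5%, was 53.0% with all 21 carcinomas, 63.5% with the replicate block, 19.9% with scan day, 50.9% with 1 tumor per rat, 52.8% with the ER covariate and 24.9% to 62.0% without 1 tumor. The cause of these changes was not tested.

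Of the 660 values of the 20 named runs under alternatives, 659 kept their direction. The runs were chosen for extreme differences in these same arrays, so their direction was largely given by that choice. Of the 33 alternatives per run, only 19 did more than leave out 1 tumor. With normexp, whose offset shrinks the ratios of dim spots, 19 of the 20 named runs had differences smaller by over 1.5 times. The run at chr2:143980879-143981423 was at -0.0066 with probes above background in both channels. No array summary or chromosome passed adjustment under any of its alternatives. With scan day as a block, arrays were permuted only within the 2 days that held both groups. The few arrangements left that alternative little room to pass. The 75th percentile, 0.011 higher in IR-3W, differed by -0.0079 with a common spread, -0.013 with the series table, -0.030 with scan day and -0.038 to 0.052 without 1 tumor. The 25th percentile differed by 0.0087 with probes above background in both channels, and the percent of probes over 2 by -0.63 with scan day. With scan day the differences were -0.0092 on chromosome 1, -0.035 on 2, -0.041 on 4, -0.011 on 5, -0.0014 on 6, -0.022 on 9, -0.018 on 14 and -0.022 on 15. Without 1 tumor they ranged from -0.0036 to 0.046 on chromosome 2 and -0.018 to 0.046 on chromosome 4. Of the level classes, runs below 0 differed by 0.0052 without IR-3W tumor 1 and 0.0062 with a common spread, and without that tumor runs from 0 to 1 differed by -0.011 and from 1 to 2 by -0.052. Probes near background in Cy5 limit the low end of the levels.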
